A study of Cinachyrella cavernosa with 3 samples.

Results

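In the ball-shaped marine sponge Cinachyrella cf. cavernosa, 80 coding sequences stood at least 2-fold above their before-wound level both during regeneration and after it. They were drawn from 869 coding sequences that all 3 deposited tables listed and that reached 20 reads in some table, out of 3229 listed in any table. Read counts were divided by a size factor for each library (0.983 for the before library, 0.879 for the during library and 1.15 for the after library), and a sequence was taken when its scaled count in the during library and in the after library was at least 2 times that in the before library. The 80 sequences were thus chosen by these measured ratios, which are given below as a description. Of all 869, 226 (26.0%) were at least 2-fold higher during regeneration than before, 129 (14.8%) were at least 2-fold higher after regeneration than before, and 80 (9.21%) met both conditions.

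The study sampled tissue of sponges acclimatised in aquaria at 3 stages: unwounded, while a wound modelled on a fish bite regenerated, and once it had regenerated. The unwounded (before) tissue was the control, and each stage is 1 library without replicates. The tables held 773142 reads in the before library, 1062098 in the during library and 965464 in the after library. Neither the sampling hours or days nor the number of animals per library is given in the sources used here, so a difference between stages and a difference between the animals or tissue pieces sampled cannot be told apart. More cells of a type and more RNA per cell cannot be told apart either.

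Sponges have no organs and rebuild lost tissue with a few mobile cell types. In demosponges, cells of the surface layer and wandering cells such as archaeocytes, which are regarded as stem cells, gather at a wound, close it with a new outer layer and later restore the canals, feeding chambers and skeleton. The files identify sequences only by a coding sequence (CDS) number and a Unigene number, so none of the 80 is given a function here, and cell type markers could not be looked up.

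The 95% intervals given beside ratios below come from an exact conditional binomial calculation on read pairs. Such an interval reflects counting error alone, not variation between animals, and no test between stages was possible with 1 library each. For 68 of the 80 sequences the lower limits of both ratios lay above 1, and for 22 both lay at or above 2. Over all 869 sequences these limits were met by 145 (16.7%) and 22 (2.53%), and the choice of the 80 largely fixes the share among them. The 12 sequences whose interval reached equal levels in at least 1 of the ratios had between 6 and 14 reads before the wound.

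The median over the 80 was 35 reads in the before library, 146 in the during library and 144 in the after library, against 128, 108 and 134 reads for the other 789 sequences. The median over the 80 of the ratio of scaled counts to the before level was 4.14 during regeneration and 2.79 after regeneration. For the other sequences the medians were 0.861 and 0.895, and over all 869 the median log2 ratios were -0.02 and -0.06. During regeneration 44 of the 80 were at least 4-fold and 13 at least 8-fold above the before level. After regeneration 19 were at least 4-fold and 5 at least 8-fold above it. Over all 869 sequences, 84 (9.67%) and 18 (2.07%) reached these folds during regeneration, and 22 (2.53%) and 5 (0.575%) after it, so the 5 sequences at least 8-fold higher after regeneration all belonged to the 80. The rule fixes the direction of this overlap.

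**Figure D1:**
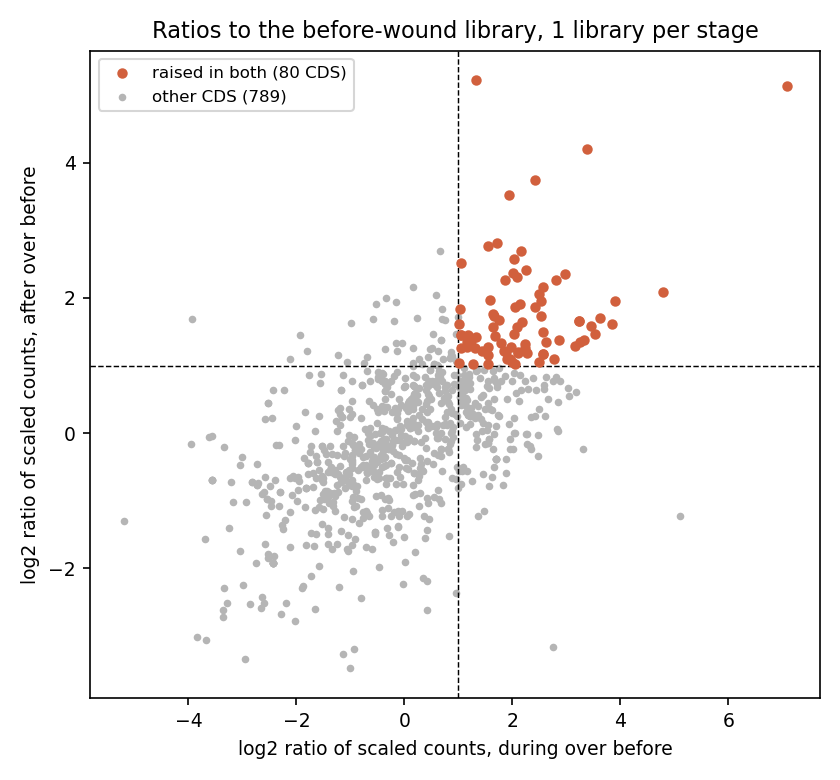
Each point is 1 coding sequence. The x axis is the log2 ratio of scaled counts during over before, the y axis the log2 ratio after over before, and the dashed lines mark 2-fold. The 80 sequences raised in both libraries (coloured) fill the upper right corner by the rule that chose them, and the other 789 are grey.

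The before count is the denominator of both ratios, so the rule itself used it, and the shares by before count are a description. Of the 83 sequences with under 20 reads in the before library, 25 (30.1%) met the rule. The share was 17.8% (27 of 152) for 20 to under 50 reads, 6.09% (19 of 312) for 50 to under 200 reads and 2.80% (9 of 322) for 200 reads and over. A sequence with under 20 reads before the wound passed the read filter only through a higher count in a later library. Without the filter the same class held 101 sequences, 25 (24.8%) of them among the 80. How far counting error in the before library added to this class was not tested.

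The 10 sequences raised furthest, ranked by the smaller of both ratios, were led by CDS_61609_Unigene_96275 (297 bases). It had 18 reads before the wound, 2172 during regeneration and 738 after it. Its scaled count was 135-fold higher during regeneration than before (interval 70.8 to 296) and 35.0-fold higher after regeneration than before (18.2 to 77.1). By deposited FPKM, which allows for length, it ranked 907 of 1928 in the before library, 22 of 1769 in the during library and 56 of 2127 in the after library.

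CDS_49435_Unigene_77348 (333 bases) had 12, 112 and 260 reads before, during and after, at 10.4-fold (4.51 to 29.6) during and 18.5-fold (8.26 to 51.3) after regeneration against before. CDS_58734_Unigene_91758 (486 bases) had 18, 86 and 284 reads, at 5.34-fold (2.57 to 12.5) and 13.5-fold (6.89 to 30). In both the after library was above the during library by 1.77-fold (1.28 to 2.47) for the first and 2.52-fold (1.78 to 3.63) for the second. CDS_32788_Unigene_51128 (396 bases) had 64, 254 and 484 reads, at 4.44-fold (2.99 to 6.76) and 6.45-fold (4.45 to 9.64), and was 1.45-fold (1.17 to 1.82) higher after than during regeneration.

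Others of the 10 were near level between the later libraries or lower after regeneration. CDS_19782_Unigene_30752, the longest of the 10 at 1395 bases, had 36, 226 and 204 reads, at 7.02-fold (4.25 to 12.3) during and 4.83-fold (2.91 to 8.48) after against before. CDS_11910_Unigene_18368 (318 bases) had 56, 298 and 294 reads, at 5.95-fold (3.95 to 9.26) and 4.48-fold (2.97 to 6.97). CDS_33347_Unigene_51997 (303 bases) had 6, 148 and 30 reads, at 27.6-fold (9.08 to 137) during but only 4.26-fold (1.21 to 23.0) after regeneration. It had only 3 read pairs before the wound, so these intervals are wide.

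The other 3 of the 10 were low throughout. CDS_57537_Unigene_89894 (393 bases) had 8, 56 and 48 reads, CDS_53113_Unigene_83059 (303 bases) had 8, 34 and 50 reads, and CDS_23970_Unigene_37198 (303 bases) had 10, 38 and 58 reads. Their ratios ran from 4.25 to 7.83 during and from 4.94 to 5.33 after regeneration, and in each at least 1 interval reached below 2. All 10 kept at least 89.8% of their read pairs in the FPKM values by an approximate estimate that compares sequences of like length.

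**Figure D2:**
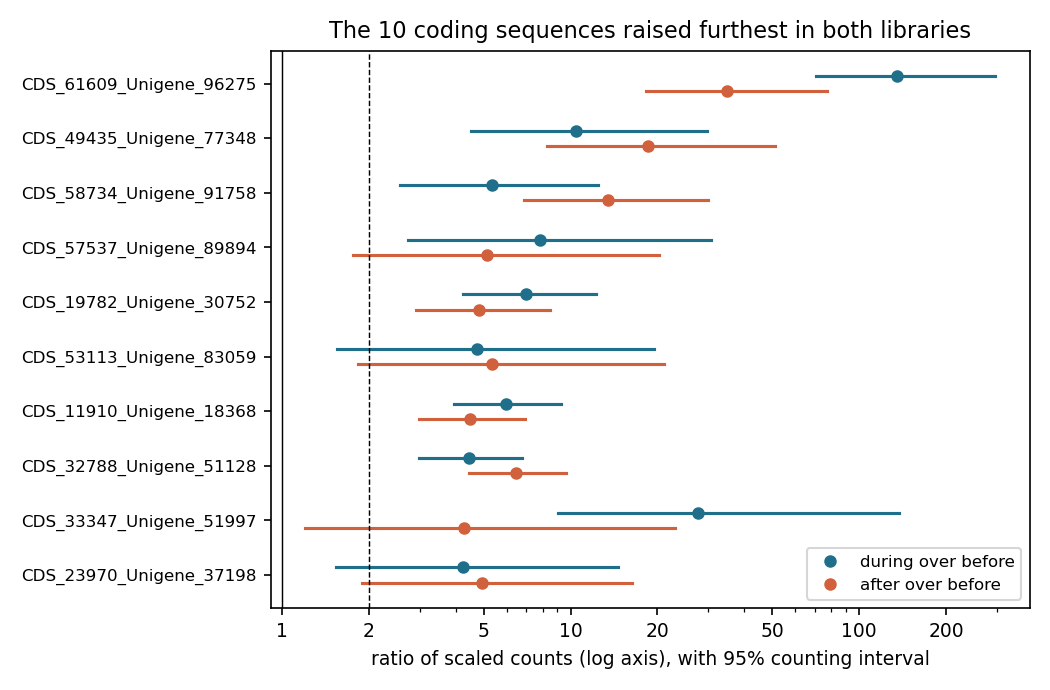
Ratios of scaled counts to the before-wound library (x axis, log scale) for the 10 sequences with the highest smaller ratio, 1 row each. Points are during over before and after over before, lines are 95% counting intervals, the solid line marks 1 and the dashed line 2; CDS_61609_Unigene_96275 lies at 135-fold and 35.0-fold, apart from the other 9.

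One abundant sequence dominated the reads of the group. CDS_29213_Unigene_45573 (537 bases) had 4194, 54112 and 15094 reads before, during and after, which was 0.542%, 5.09% and 1.56% of the library reads. Its scaled count was 14.4-fold (13.8 to 15.1) higher during and 3.07-fold (2.92 to 3.22) higher after regeneration than before. By deposited FPKM the same ratios were 9.21, below the interval given, and 3.01, within it. It held rank 31 by FPKM before the wound, rank 9 during and rank 13 after regeneration. FPKM kept about 88.2%, 93.1% and 90.1% of its pairs.

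All 80 sequences together held 1.20% of the before library (exact binomial 95% interval 1.17 to 1.24), 7.21% of the during library (7.14 to 7.28) and 3.51% of the after library (3.46 to 3.57). Without CDS_29213_Unigene_45573 the other 79 held 0.662% (0.637 to 0.688), 2.11% (2.07 to 2.15) and 1.95% (1.91 to 1.99). This sequence made up 45.0% of the group's reads in the before library, 70.7% in the during library and 44.5% in the after library. On scaled counts the sum over the 80 was 9.19 times the before level during and 3.11 times after regeneration, and over the other 79 it was 4.90 and 3.14 times. The rule chose the 80 by higher scaled counts in these later libraries, so the shares and sums are a description. Their intervals hold counting error alone and do not allow for this choice.

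**Figure D3:**
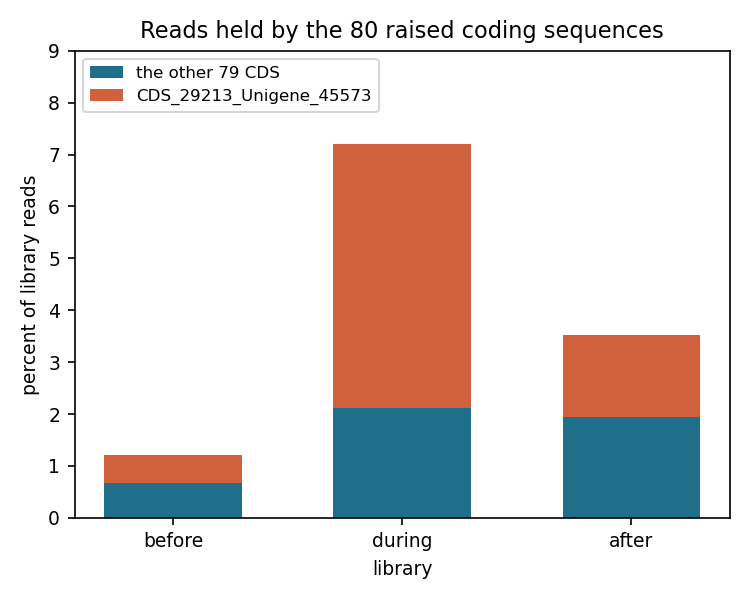
Percent of library reads (y axis, from 0) held by the 80 raised sequences in the before, during and after libraries. The rule chose these sequences by higher scaled counts in both later libraries. The upper part of each bar is CDS_29213_Unigene_45573 at 0.542%, 5.09% and 1.56%, and the lower part the other 79 sequences at 0.662%, 2.11% and 1.95%.

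After CDS_29213_Unigene_45573 and CDS_61609_Unigene_96275, the highest mean FPKM values belonged to 4 sequences that were already well measured before the wound. CDS_21477_Unigene_33391 (354 bases) had an FPKM of 3926, 7540 and 9965 before, during and after, from 466, 1326 and 1484 reads. CDS_18636_Unigene_28942 (303 bases) had an FPKM of 3138, 4286 and 7474, from 260, 546 and 788 reads. CDS_27768_Unigene_43239 (432 bases) had an FPKM of 1491, 3782 and 3889, and CDS_8941_Unigene_13749 (300 bases) had an FPKM of 1683, 3355 and 3906.

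Depth makes the counting intervals of these ratios narrow, but such intervals leave out the choice of scaling. On scaled counts CDS_21477_Unigene_33391 was 3.18-fold (2.74 to 3.71) higher during and 2.71-fold (2.34 to 3.16) higher after regeneration than before. CDS_18636_Unigene_28942 was at 2.35-fold (1.90 to 2.92) and 2.58-fold (2.11 to 3.18), and CDS_27768_Unigene_43239 at 4.09-fold (3.36 to 5.0) and 2.76-fold (2.26 to 3.39). CDS_8941_Unigene_13749 lay at 3.44-fold (2.60 to 4.59) and 2.52-fold (1.91 to 3.37). On the deposited FPKM scale, which is not scaled by these size factors, all 4 were highest in the after library. On scaled counts 3 of the 4 were highest during regeneration. By deposited FPKM, during over before was 1.92 for CDS_21477_Unigene_33391, 1.37 for CDS_18636_Unigene_28942, 2.54 for CDS_27768_Unigene_43239 and 1.99 for CDS_8941_Unigene_13749. Each lay below the interval given. After over before by deposited FPKM lay within the interval given for all 4.

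The rule does not set the after library against the during library directly. Of the 80 sequences 21 were at least 2-fold lower after than during regeneration, 53 lay within 2-fold and 6 were at least 2-fold higher. For all 869 sequences the shares at least 2-fold lower and higher were 19.2% and 17.3%, against 26.3% and 7.50% of the 80. The counting interval lay below 1 for 38 of the 80 and above 1 for 11, beside 261 and 261 (30.0% each) of all 869. The median ratio after over during was 0.719 for the 80 and 1.08 for the other 789. The same libraries chose the 80 sequences, so these shares are a description.

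These counts depended on the scaling. With the same 80 sequences divided by library totals, which moved the median log2 ratio after over during of all 869 from 0.08 to 0.60, 13 were at least 2-fold lower, 56 within 2-fold and 11 at least 2-fold higher, and the median turned to 1.04. With FPKM as deposited the counts were 10, 53 and 16 over the 79 sequences with a value, and the median was 1.12. The sequences above 1 were 52.5% of the 80 against 68.5% of all 869 with library totals. With FPKM they were 60.8% of the 79 with a value against 68.8% of all 869, a total that keeps sequences without a value. These shares too are a description, since the same libraries chose the 80. With size factors as used here the shares were 33.8% and 53.5%.

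**Figure D4:**
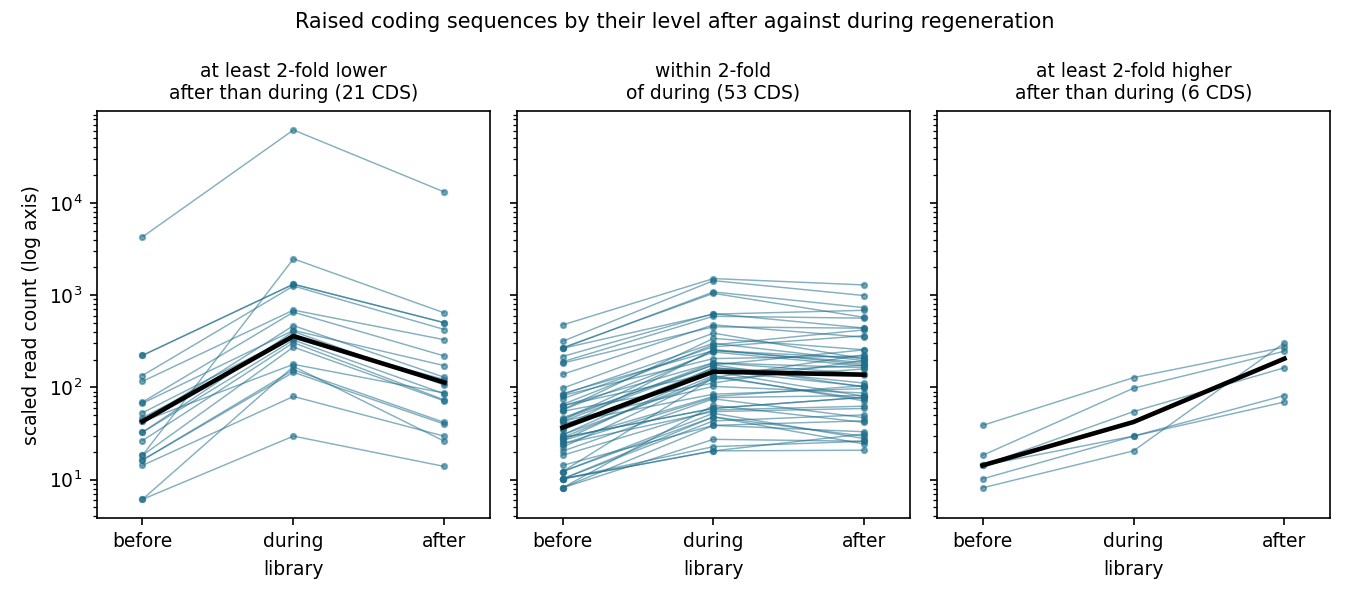
Scaled read counts (y axis, log scale) of the 80 sequences in the before, during and after libraries, 1 thin line per sequence and the median as a thick line. The panels split them into 21 at least 2-fold lower after than during, 53 within 2-fold and 6 at least 2-fold higher; the uppermost line of the left panel is CDS_29213_Unigene_45573.

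The 21 sequences at least 2-fold lower after than during regeneration had a median ratio to the before level of 9.34 during and 2.61 after regeneration. CDS_33347_Unigene_51997 had the lowest ratio after over during, 0.155 (0.0824 to 0.272), followed by CDS_29213_Unigene_45573 at 0.213 (0.207 to 0.218). CDS_25133_Unigene_39017 (339 bases, 26, 268 and 84 reads) lay at 0.239 (0.165 to 0.340) and CDS_61609_Unigene_96275 at 0.259 (0.230 to 0.292). All 4 were still at least 2.75-fold above the before level after regeneration on scaled counts. The intervals of these ratios reached down to 1.21 for CDS_33347_Unigene_51997 and 1.45 for CDS_25133_Unigene_39017. The deposited FPKM of CDS_25133_Unigene_39017 was 0 both before and after. Others of like shape, chosen after their values were seen, were CDS_25433_Unigene_39515 with 18, 240 and 82 reads, CDS_38455_Unigene_60244 with 32, 354 and 122, CDS_18111_Unigene_28132 with 42, 410 and 148, and CDS_37137_Unigene_58100 with 132, 1102 and 488 reads. Their ratios were 14.9, 12.4, 10.9 and 9.34 during regeneration and 3.88, 3.25, 3.0 and 3.15 after it.

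Among the 53 within 2-fold were sequences with enough reads for narrow intervals. CDS_40595_Unigene_63552 (489 bases) had 180, 398 and 504 reads and a ratio after over during of 0.965 (0.798 to 1.17). CDS_56125_Unigene_87695 (375 bases) had 186, 518 and 648 reads and a ratio of 0.954 (0.807 to 1.13). CDS_18636_Unigene_28942 was at 1.10 (0.941 to 1.29) and CDS_21477_Unigene_33391 at 0.853 (0.767 to 0.949). The intervals of the first 3 included equal levels, and all 4 were between 2.35-fold and 3.18-fold above the before level during regeneration and between 2.39-fold and 2.97-fold after it. They are the 4 nearest to 1 of the 24 sequences with at least 200 reads in both later libraries. This nearness depended on the scaling: by deposited FPKM, after over during was 1.46 for CDS_40595_Unigene_63552, 1.47 for CDS_56125_Unigene_87695, 1.74 for CDS_18636_Unigene_28942 and 1.32 for CDS_21477_Unigene_33391, each above the interval given.

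The 6 sequences that were at least 2-fold higher after than during regeneration had between 8 and 38 reads before the wound. CDS_49760_Unigene_77850 (357 bases) had 8, 18 and 350 reads: its ratio during over before was 2.52 (0.702 to 11.2), an interval that includes equal levels, while after over before it was 37.3 (14.3 to 138) and after over during 14.8 (7.63 to 33.0). Most of its difference therefore lay between the during and the after library. CDS_47870_Unigene_74921 (429 bases) had 14, 48 and 188 reads, at 2.99 (1.89 to 4.89) after over during. CDS_41852_Unigene_65499 (360 bases) had 14, 26 and 94 reads, at 2.76 (1.47 to 5.55), and its ratio during over before, 2.08 (0.770 to 6.15), also had an interval that includes equal levels. CDS_58734_Unigene_91758 was described above. The other members of this class were CDS_57573_Unigene_89950 (750 bases; 38, 112 and 314 reads) at 2.14 (1.57 to 2.95) and CDS_63393_Unigene_99042 (372 bases; 10, 26 and 80 reads) at 2.35 (1.23 to 4.78). For CDS_63393_Unigene_99042 too the interval during over before, 2.91 (0.973 to 10.4), included equal levels, as it did in 3 of the 6 in all.

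In length the 80 sequences resembled the rest. Their median was 370.5 bases (range 297 to 1650) against 381 bases (288 to 2865) for the other 789, and 15.0% against 14.1% were 600 bases or longer. The longest, CDS_18319_Unigene_28466 (1650 bases), had 264, 918 and 660 reads, at 3.89-fold (3.20 to 4.76) during and 2.13-fold (1.74 to 2.63) after regeneration against before. CDS_19517_Unigene_30348 (1605 bases) had 66, 364 and 198 reads, at 6.17-fold (4.24 to 9.23) and 2.56-fold (1.71 to 3.92). For these long sequences the estimated share of pairs kept by FPKM was 70.2% to 81.3%. The estimate does not correct for length within a group of like length and reads low for the longest, so no loss of pairs can be inferred. All 80 lengths were multiples of 3, as coding lengths are. No test of length was run.

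Some of the 80 had counts equal to those of another sequence. FPKM kept at least 90% of the pairs in every table for 52 of them (65.0%), against 63.9% of the other 789. CDS_29543_Unigene_46087 and CDS_29544_Unigene_46088 (399 bases) had the same 218, 1152 and 578 reads, at 5.91-fold (4.81 to 7.32) during and 2.26-fold (1.81 to 2.84) after regeneration. CDS_59361_Unigene_92745 and CDS_59362_Unigene_92746 (303 bases) had the same 28, 52 and 90 reads, at 2.08-fold (1.05 to 4.30) and 2.74-fold (1.48 to 5.41). FPKM kept between 49.3% and 51.2% of the pairs of these 4, and whether the same reads were counted under both names was not tested. Among the other 789, 84 belonged to 35 such sets.

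CDS_25133_Unigene_39017 and its numeric neighbour CDS_25134_Unigene_39018 (354 bases) had nearly equal counts, 26, 268 and 84 against 32, 286 and 98 reads, but different FPKM values. CDS_25133_Unigene_39017 is listed at an FPKM of 0 before the wound and after regeneration and at 889 during it, while CDS_25134_Unigene_39018 had an FPKM of 135, 405 and 329. These 3 couples are the only ones among the 80 with adjacent Unigene numbers, and all 869 sequences held 44 adjacent pairs. The 1 other sequence next to one of the 80 was CDS_11888_Unigene_18332, with 900, 690 and 1032 reads and ratios of 0.857 and 0.978.

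For a few sequences FPKM went against the read counts. CDS_5072_Unigene_7869 (384 bases) had 46, 154 and 116 reads but an FPKM of 32.4, 52.1 and 7.41, which kept about 9.70%, 6.92% and 1.12% of the pairs. CDS_53210_Unigene_83229 (1272 bases) had 62, 126 and 200 reads but an FPKM of 47.7, 31.7 and 122. Of the 80 sequences 77 were above the before level in both later libraries by deposited FPKM, these 2 were not, and CDS_25133_Unigene_39017 gave no ratio. FPKM comes from the same libraries that chose the 80, so this count is a description. The 2-fold rule itself was met by 47 of the 80 by deposited FPKM. With FPKM divided by its own size factors, CDS_53210_Unigene_83229 lay at 1.06 and 2.72 and CDS_5072_Unigene_7869 at 2.58 and 0.243.

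The threshold separated sequences whose smaller ratios hardly differ, though their counting intervals do. Just inside it were CDS_57309_Unigene_89536 (10, 18 and 36 reads) and CDS_13726_Unigene_21235 (10, 18 and 24 reads), both with a smaller ratio of 2.01, and CDS_10670_Unigene_16413 (54, 98 and 226 reads) with 2.03. Just outside were CDS_45238_Unigene_70792 (78, 138 and 302 reads) and CDS_28584_Unigene_44566 (60, 106 and 144 reads), both with 1.98, and CDS_40004_Unigene_62645 (178, 340 and 408 reads) with 1.95. For CDS_57309_Unigene_89536 and CDS_13726_Unigene_21235 the interval of the smaller ratio was 0.606 to 7.65, which includes equal levels. For CDS_10670_Unigene_16413 it was 1.24 to 3.38. Just outside, the intervals were 1.32 to 3.01, 1.24 to 3.20 and 1.52 to 2.54 in the order named, all above 1. In all, 34 of the 80 had a smaller ratio under 2.5, 32 had both ratios at 3 or more, and 13 (1.5% of the 869) had both at 4 or more. Another 312 sequences were listed in the during and the after table but not in the before table, 233 of them with at least 20 reads in one. They cannot enter a ratio.

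**Figure D5:**
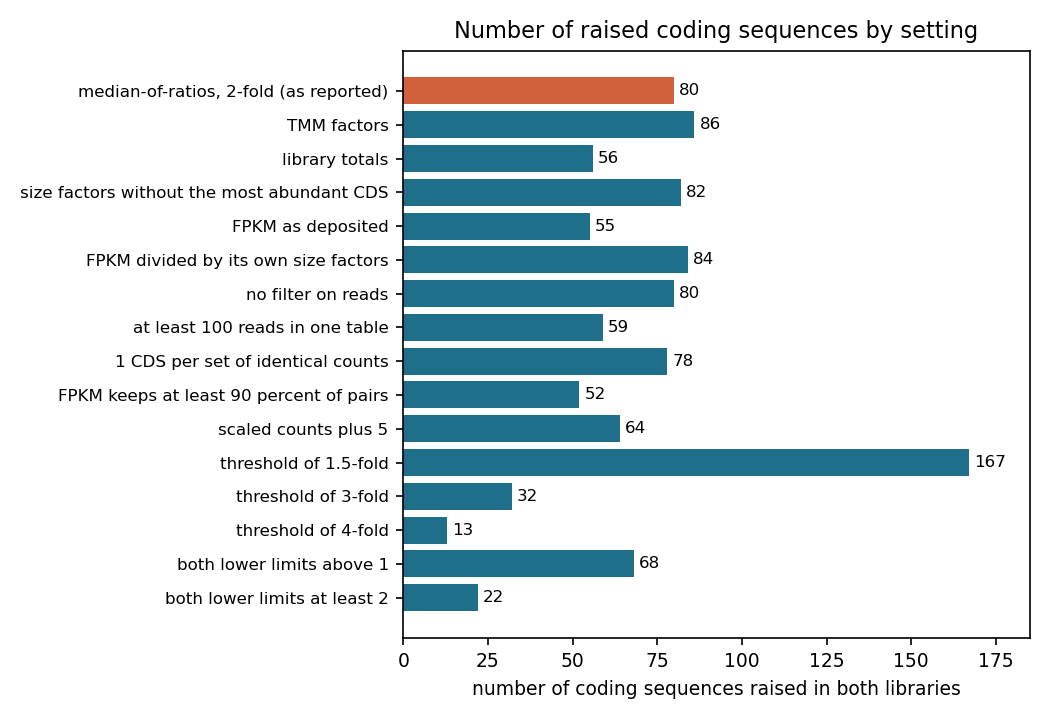
Number of sequences raised in both later libraries (x axis, from 0), 1 bar per setting. The setting that reads sequences missing before as 0 reads, which gives 313, is not drawn. The reported setting gives 80; other scalings give 55 to 86, and thresholds of 1.5-fold, 3-fold and 4-fold give 167, 32 and 13.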

How the data were processed

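Messenger RNA of sponge tissue was sequenced in 3 libraries made with a stranded paired-end kit, per the labels' protocols. The authors deposited 1 table per library with read counts, lengths and FPKM per coding sequence, per the file headers. The submitters' processing notes name FastQC, Trimmomatic and RSEM, with no version. How sequences were assembled, how reads were aligned and which sequences were listed is not given in the sources used here. All deposited counts are even, so each pair appears to be counted as 2 reads, and intervals use pairs. The members and the rule for named sequences were chosen with earlier results of these data known.

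Size factors were medians of ratios over the 887 sequences listed in all 3 tables (Python 3.11.15, pandas 2.3.3, scipy 1.17.1). TMM factors (edgeR 4.0.16, R 4.3.3), library totals, FPKM, other filters and thresholds were tried as alternatives. The share of pairs that FPKM keeps is approximate: FPKM per pair over its 0.8 quantile among 60 or more sequences of like length, which can pass 100%. Length differences within such a group are not corrected, so the share reads low for the longest sequences, also where a 90% filter uses it. Sequences absent from a table were left out, except in 1 alternative that sets them to 0 reads. Named were the 10 members with the highest smaller ratio, the 6 with the highest mean FPKM, the 4 highest, the 4 lowest and the 4 nearest to 1 (of those with 200 reads or more in both) in after over during, 3 on each side of the threshold, the 2 longest and the 2 largest sets of identical counts. The rule and the interval were tried on simulated counts with Poisson counting error and planted folds all above the 2-fold threshold. The simulation held no variation between animals and no folds near the threshold, so it cannot judge the sequences close to it.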

Additional observations from a re-analysis of the deposited data

How the results depend on the processing

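No paired analysis was possible because each stage has 1 library, and for the same reason no library could be left out. Depth limits the low sequences most. The number of sequences raised in both later libraries was 80. It stayed within 1.5 times of that under other size factors, FPKM, other read filters, added counts and single copies (55 to 86). It was 52 when FPKM had to keep 90% of the pairs (fewer sequences), 167, 32 and 13 at thresholds of 1.5-fold, 3-fold and 4-fold, 22 with both lower limits at least 2, and 313 with sequences missing before read as 0 reads. All 80 were among the 86 with TMM factors, and all 56 found with library totals were among the 80. Of the 55 with FPKM as deposited 47 were among the 80 and 8 were not, and of the 84 with FPKM divided by its own size factors 71 were and 13 were not.

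The sequences at least 2-fold higher during than before were 226, and 129 with library totals, 113 with FPKM as deposited and 142 where FPKM keeps 90%. Library totals and FPKM move the median log2 ratio during over before of all sequences to -0.64 and -0.70. With the members found anew, those at least 2-fold lower after than during were 21, against 13 with library totals, 13 with FPKM as deposited and 12 where FPKM keeps 90%; those within 2-fold were 53, against 34 with FPKM as deposited and 34 where FPKM keeps 90%.

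The share of reads before, during and after was 1.20%, 7.21% and 3.51%. It was 1.35%, 7.39% and 3.81% with TMM; 1.02%, 6.89% and 3.05% with library totals; 1.10%, 6.89% and 2.90% with FPKM as deposited; 1.69%, 7.73% and 4.30% with FPKM divided by its own size factors. With at least 100 reads it was 1.17%, 7.12% and 3.40%, and with scaled counts plus 5 it was 1.16%, 7.13% and 3.37%. Single copies gave 7.09% during and 3.44% after. Where FPKM keeps 90% it was 0.408%, 1.28% and 1.31%, which leaves out CDS_29213_Unigene_45573; without that sequence alone, an alternative chosen after seeing the data, it was 0.662%, 2.11% and 1.95%.

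The log2 ratio after over during turned positive for 6 of 33 named sequences with library totals and for 9 of 32 with FPKM as deposited, 9 in all. In 5 of these the interval as reported lay below equal levels: CDS_11910_Unigene_18368 (0.12 with library totals, 0.24 with FPKM as deposited), CDS_21477_Unigene_33391 (0.30 and 0.40), CDS_8941_Unigene_13749 (0.081 and 0.22), and, with FPKM as deposited, CDS_19782_Unigene_30752 (0.020) and CDS_27768_Unigene_43239 (0.040). Both settings lower the during library relative to the others.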
